A study of Mus musculus with 32 samples.

Results

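Wild-type (WT) tibialis anterior at 9 months of age was compared with the same muscle at 6 months, in mice labelled as strain B6/129 and given no treatment in the labels. The comparison used the 4 WT arrays of 9 months against the 4 WT arrays of 6 months, which were 8 of the 32 arrays of the series. All probe sets with 1 gene symbol were taken, 19291 of 20079, whatever their values. The series held 8 groups of 4 arrays: WT mice and Gaa-/- mice, labelled as a GAA knockout of the 6neo/6neo allele, at 1.5, 4, 6 and 9 months. The labels call the arrays of a group biological replicates and the design text calls them animals, with 1 muscle sample of about 20 mg behind each array. Gaa encodes the lysosomal enzyme acid alpha-glucosidase, and the WT mice of this comparison are the healthy controls of the knockout. The groups compared here shared genotype, strain and tissue and differed, as far as the labels say, in age only.

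Tibialis anterior is a limb muscle made mostly of fast, glycolytic fibres. Its fibres hold sarcomeres, calcium-release membranes at the triads, and mitochondria that supply ATP from fat and sugar, while fibroblasts between the fibres lay down collagen and other matrix. Muscle protein is broken down by the proteasome and by lysosomes, and growth of the fibres is held back by myostatin. At these ages a mouse is a young to mature adult, before the loss of muscle mass of old age.

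The values were on a log2 scale, from 1.39 to 13.8, with array medians between 5.66 and 5.82. A gene under 5.66 is called dim below: no background level was measured here, so the fold change of a dim gene has no measured floor. The tissue label was borne out by the fast fibre genes, 16 of 16 of which were measured, with a median level of 12.78 in WT at 6 months and a log2 summed level of 16.91 to 16.97 at 6 months and 16.87 to 16.93 at 9 months. Genes of heart, gut smooth muscle, liver and pancreas, 8 of 8 measured, had a median level of 5.13. Gaa itself lay between 10.32 and 10.70 in the 8 WT arrays and between 6.44 and 7.18 in the 8 Gaa-/- arrays of 6 and 9 months, and its WT difference of 0.15 ± 0.13 did not pass (limma, adjusted p = 0.465). Arrays of WT at 6 months correlated across genes at 0.984 to 0.985 and those of 9 months at 0.971 to 0.981.

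More genes fell than rose between 6 and 9 months, and most changes were small. On the deposited values 604 genes were higher at 9 months (3.13% of 19291) and 1223 were lower (6.34%), at an adjusted p under 0.05 in limma over all genes. The median size of a called difference was 0.55 on the log2 scale. At least a 2-fold rise was seen for 2 called genes and at least a 2-fold fall for 97. The 9-month arrays lay below all 12 younger WT arrays for 862 genes and above all of them for 268 on the deposited values, and for 502 and 475 after quantile normalization.

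The WT arrays of 9 months had a narrower spread of values than those of 6 months. The standard deviation of an array's values was 1.79, 1.83, 1.86 and 1.90 in the 4 arrays of 9 months and 1.92 to 1.95 in those of 6 months, a difference of -0.0892 with no overlap. This narrower spread was known when the comparison was set up and is given as a description, with no test. Gaa-/- arrays of 9 months had a mean of 1.92. A narrower spread places bright genes lower and dim genes higher. On the deposited values the median difference was between 0.05 and 0.13 in the 5 dimmer of 10 equal level classes, and -0.16 and -0.22 in the 2 brightest. In the brightest class 497 of 1929 genes were called lower and 27 higher. For this reason deposited values are given beside those after quantile normalization, which gives all 32 arrays the same set of values. After it, the class medians lay between -0.03 and 0.06, and the brightest class had 174 lower and 128 higher.

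**Figure D1:**
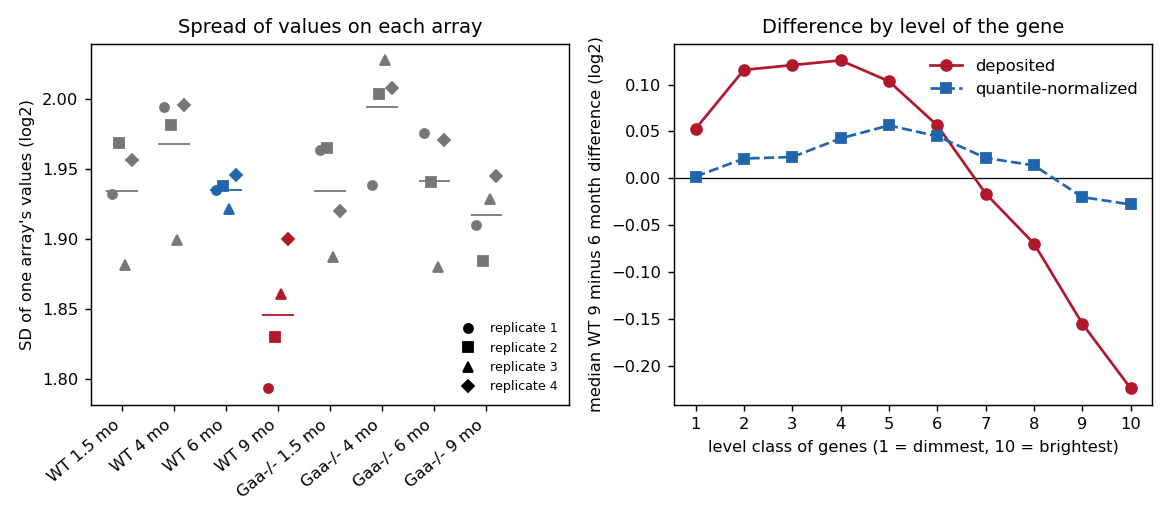
Left, the standard deviation of each array's values (log2) by group, with bars at the group means; the 4 WT arrays of 9 months, in red, lie at 1.79 to 1.90 and below the 4 of 6 months, in blue. Right, the median WT 9 minus 6 month difference (log2) in 10 classes of genes by level; on the deposited values it goes from 0.05 in the dimmest class to -0.22 in the brightest, and after quantile normalization it stays between -0.03 and 0.06.

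After quantile normalization 740 genes were higher at 9 months (3.84%) and 810 were lower (4.2%), so the excess of falls over rises shrank: rises were 33.1% of the calls on deposited values and 47.7% after normalization. On both scales, with the same sign, 461 genes were higher (2.39%) and 732 lower (3.79%). Of the deposited calls 65.3% were kept, and no gene was called with opposite signs. The changes named below as shared passed on both scales, and 356 of the shared rises and 584 of the shared falls also showed no overlap between the 4 arrays of 9 months and the 4 of 6 months on either scale. Among all 19291 genes, called or not, 2884 showed no overlap on the deposited values and 2524 after quantile normalization.

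The following measured facts stand beside every count below, and their part in the results was not tested. WT 9 mo replicate 1, the array with the narrowest spread, carried many calls. Without it 64 genes were higher and 129 lower on both scales, of which 60 and 126 were among the calls with all arrays. With array spread as a covariate in the deposited fit, 2 genes were called higher and 0 lower in limma. They were Ddx20 and Klf12, chosen after their values were seen. In limma without the covariate Klf12 was called (adjusted p = 0.00831) and Ddx20 was not (adjusted p = 0.17). At an unadjusted p under 0.05 the covariate fit had 830 genes higher and 1126 lower. Of the genes named below, 113 were called on the deposited values, of which 47 kept the call without WT 9 mo replicate 1 and 0 with the covariate.

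The largest shared falls were in genes of very different function, among them parts of the contractile and calcium-release apparatus. The 14 largest by the deposited difference were taken among shared falls with no overlap of the ages on either scale. That lack of overlap was a condition of the choice and is no result for them. These 14 fell 2.67-fold to 5.35-fold, and in each the 4 arrays of 9 months lay below all 12 younger WT arrays. Nexn, which encodes the Z-disc protein nexilin, led them. Its values were 9.39, 9.29, 10.23 and 9.51 at 6 months and 6.33, 7.76, 6.87 and 7.78 at 9 months. Replicates 1 and 3 of 9 months were the lowest, and the ages did not overlap. The difference was -2.42 ± 0.58 (SE; adjusted p = 0.0102), and -2.32 (adjusted p = 0.0144) after quantile normalization.

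Trdn, encoding triadin of the junctional sarcoplasmic reticulum, had 11.24, 11.16, 11.82 and 11.06 at 6 months and 9.21, 10.27, 9.47 and 10.18 at 9 months. Again replicates 1 and 3 were the lowest and no array of 9 months reached the level of 6 months. Its fall was 1.54 ± 0.36 on the log2 scale (value -1.54, adjusted p = 0.00997; quantile-normalized -1.32, adjusted p = 0.0185). Xirp2, an actin-binding protein of muscle, fell by 1.45 (adjusted p = 0.00759; quantile-normalized -1.26, adjusted p = 0.0108), from 10.45 to 10.80 at 6 months to between 8.54 and 9.82. Beside these 3 falls the fast fibre list had a median near 0, as given below.

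Dnajc21, a J-domain co-chaperone of ribosome assembly, had 9.12, 9.24, 9.47 and 9.24 at 6 months and 6.93, 7.75, 6.53 and 7.92 at 9 months. The younger arrays were close together and the older ones well apart from each other, with no overlap. The fall was 3.97-fold (difference -1.99 ± 0.33, adjusted p = 0.00225; quantile-normalized -1.87, adjusted p = 0.00312). Eif5b, a translation initiation factor that joins the ribosomal subunits, fell 2.74-fold (adjusted p = 0.00723; quantile-normalized -1.46, adjusted p = 0.00751), and Esf1, a nucleolar protein of ribosomal RNA processing, 2.82-fold (adjusted p = 0.0129; quantile-normalized -1.54, adjusted p = 0.0119). Cox20, an assembly factor of cytochrome oxidase, fell by 1.48 (adjusted p = 0.00275; quantile-normalized -1.44, adjusted p = 0.00312), from between 7.90 and 8.50 to between 5.98 and 7.60.

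Postn, encoding the matrix protein periostin, had 7.25, 7.62, 7.17 and 8.54 at 6 months and 4.49, 5.94, 6.52 and 6.79 at 9 months. Here replicate 1 alone was far down, and replicate 3 was not among the low arrays. The difference was -1.71 ± 0.47 (adjusted p = 0.0223; quantile-normalized -1.73, adjusted p = 0.0259). The other falls were Dynlt3 (a dynein light chain), Smc4 (a condensin subunit), Gcc2 (a golgin), Septin7 (a cytoskeletal GTPase), Zfp935 (a zinc-finger protein) and Ktn1 (the kinesin-binding kinectin of the endoplasmic reticulum). Their folds ran from 2.67 for Ktn1 to 3.49 for Dynlt3, and 4 of the 14, Smc4, Gcc2, Esf1 and Zfp935, were dim at 9 months.

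**Figure D2:**
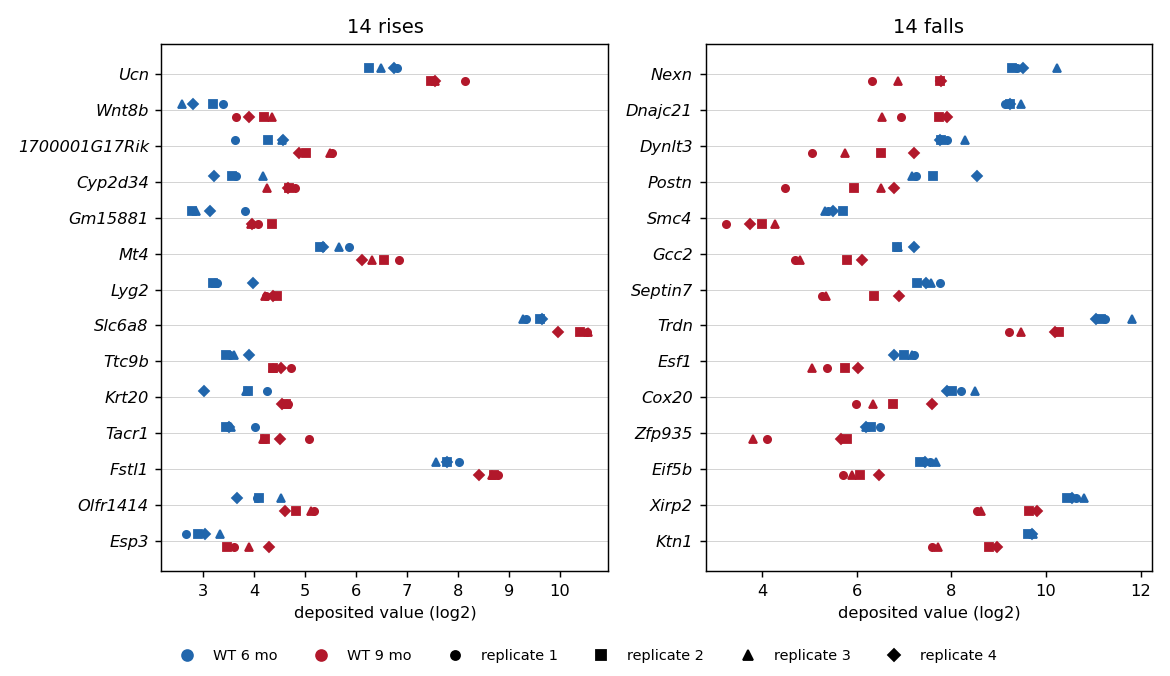
Deposited values (log2) of the 14 largest rises (left) and falls (right) shared by both scales, in the 4 WT arrays of 6 months (blue) and of 9 months (red), 1 symbol per array. The ages do not overlap in any of the 28 genes, which was a condition of their choice. WT 9 mo replicates 1 and 3 lie to the left of replicates 2 and 4 in 12 of the 14 falls.

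Within the 9-month WT group the falls were uneven in the same way from gene to gene. Replicates 1 and 3 both lay below replicates 2 and 4 in 12 of the 14 falls, and replicate 4 was the highest in 11. The median of the 14 genes, taken as the difference of each array from the WT 6-month mean, was -2.22 in replicate 1, -1.34 in replicate 2, -1.98 in replicate 3 and -0.85 in replicate 4. The younger WT arrays lay between -0.27 and 0.37. Array spread in replicates 1 to 4 was 1.79, 1.83, 1.86 and 1.90. Replicate 1 was the lowest and the narrowest, and replicate 4 the highest and the widest. Replicates 2 and 3 stood in the opposite order. The part of array spread in these medians was not tested. Leaving out WT 9 mo replicate 1, 8 of the 14 falls lost the call on the deposited values (Nexn, Postn, Smc4, Septin7, Trdn, Esf1, Zfp935 and Ktn1), with Nexn at -2.13 (adjusted p = 0.0612).

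The same 14 genes were low in 1 Gaa-/- array of 9 months. The Gaa-/- arrays entered the choice of genes through the shared estimate of spread and the common quantile scale, not through the difference that was ranked. Gaa-/- 9 mo replicate 2 had a median of -2.24, beside -0.12, -0.50 and -0.22 in the other 3. It lay below all 4 WT arrays of 6 months in 14 of the 14 genes and below all 4 WT arrays of 9 months in 8. Ktn1 shows the pattern: the Gaa-/- arrays of 9 months had 9.66, 6.90, 9.50 and 9.51, and the WT arrays 7.59, 8.79, 7.72 and 8.96. In 13 of the 14 genes the other 3 Gaa-/- arrays of 9 months were above all 4 WT arrays of that age. Gaa-/- arrays of 6 months had medians of 0.27, -0.03, -0.77 and 0.39, so replicate 3 was low there. At 1.5 months Gaa-/- replicate 1 was at -0.78, with the others between -0.25 and 0.03. At 4 months Gaa-/- replicate 1 was at -0.73, with the others between 0.32 and 0.44.

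**Figure D3:**
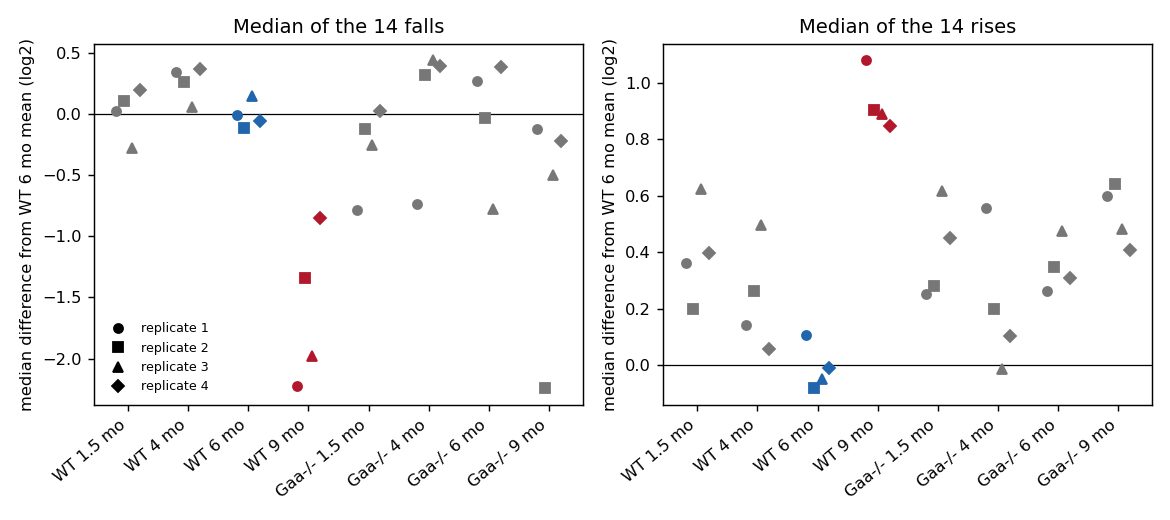
Each of the 32 arrays as the median difference (log2) of the 14 shared falls (left) and of the 14 shared rises (right) from the WT 6-month mean, by group. The falls lie at -0.85 to -2.22 in WT at 9 months and at -2.24 in 1 Gaa-/- array of 9 months. The rises lie at 0.85 to 1.08 in WT at 9 months and at 0.41 to 0.64 in Gaa-/- at 9 months. They also lie above 0 in WT at 1.5 months (0.20 to 0.62) and 4 months (0.06 to 0.49), and in Gaa-/- at 6 months (0.26 to 0.48).

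The largest shared rises were smaller than the falls, 1.79-fold to 2.15-fold, and most were in genes that were dim at 6 months. Of all 19291 genes, 10029 had a mean over the 32 arrays above 5.66, the limit for dim. The 14 named here were chosen as the falls were, with no overlap of the ages as a condition. Of the 14, 11 were dim at 6 months, and 4 (Ucn, Krt20, Fstl1 and Esp3) were above all 12 younger WT arrays. As the median difference of the 14 genes from the WT 6-month mean, WT arrays lay at 0.20 to 0.62 at 1.5 months. They lay at 0.06 to 0.49 at 4 months, -0.08 to 0.11 at 6 months and 0.85 to 1.08 at 9 months. The 6-month arrays, from which the rise is counted, were thus mostly below those of each other WT age. Ucn, which encodes urocortin, a peptide ligand of corticotropin-releasing hormone receptors, had 6.81, 6.26, 6.49 and 6.75 at 6 months and 8.14, 7.46, 7.55 and 7.56 at 9 months. Replicate 1 was the highest and the ages did not overlap. The rise was 1.10 ± 0.17 (adjusted p = 0.00122; quantile-normalized 1.23, adjusted p = 0.00191), with 6.37 ± 0.17 (SD, n = 4) at 1.5 months and 6.40 ± 0.09 at 4 months.

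Slc6a8, the creatine transporter that supplies muscle with the substrate of its phosphocreatine store, had 9.34, 9.61, 9.27 and 9.65 at 6 months and 10.54, 10.40, 10.56 and 9.97 at 9 months. Replicate 4 was the lowest of the older arrays and still above every array of 6 months. It rose by 0.90 ± 0.17 (adjusted p = 0.00401; quantile-normalized 1.11, adjusted p = 0.00279). In Gaa-/- muscle it had 9.95, 9.76, 10.04 and 9.94 at 6 months and 10.98, 10.79, 11.04 and 10.37 at 9 months, a rise of 0.87 ± 0.17 (adjusted p = 0.0236).

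Fstl1, a secreted follistatin-like glycoprotein released by muscle, had 8.02, 7.79, 7.58 and 7.79 at 6 months and 8.79, 8.71, 8.67 and 8.42 at 9 months. All 4 older arrays were above all younger ones. The rise was 0.85 ± 0.17 (adjusted p = 0.00636; quantile-normalized 1.03, adjusted p = 0.00584). The dim rises were Wnt8b and the receptor gene Tacr1, the metallothionein Mt4, the cytokeratin Krt20, Cyp2d34, Lyg2, Ttc9b, Olfr1414, Esp3, 1700001G17Rik and Gm15881. Without WT 9 mo replicate 1, 3 of the 14 rises (Cyp2d34, Gm15881 and Tacr1) lost the call on the deposited values, while Ucn (0.95, adjusted p = 0.0147), Slc6a8 (0.84, adjusted p = 0.026) and Fstl1 (0.81, adjusted p = 0.0391) kept it.

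Over the 47 gene lists, 27 had a negative median difference on both scales, 14 a positive one, and 6 changed sign with the scale. All 19291 genes had a median of 0.02 on either scale. The shares of all genes called stand beside every list count below. They were 6.34% lower and 3.13% higher on the deposited values, 4.2% and 3.84% after quantile normalization, and 3.79% and 2.39% on both. Members passed on both scales in the lower direction in 27 lists and in the higher direction in 9. In the fit with array spread as a covariate, no member of any list passed.

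**Figure D4:**
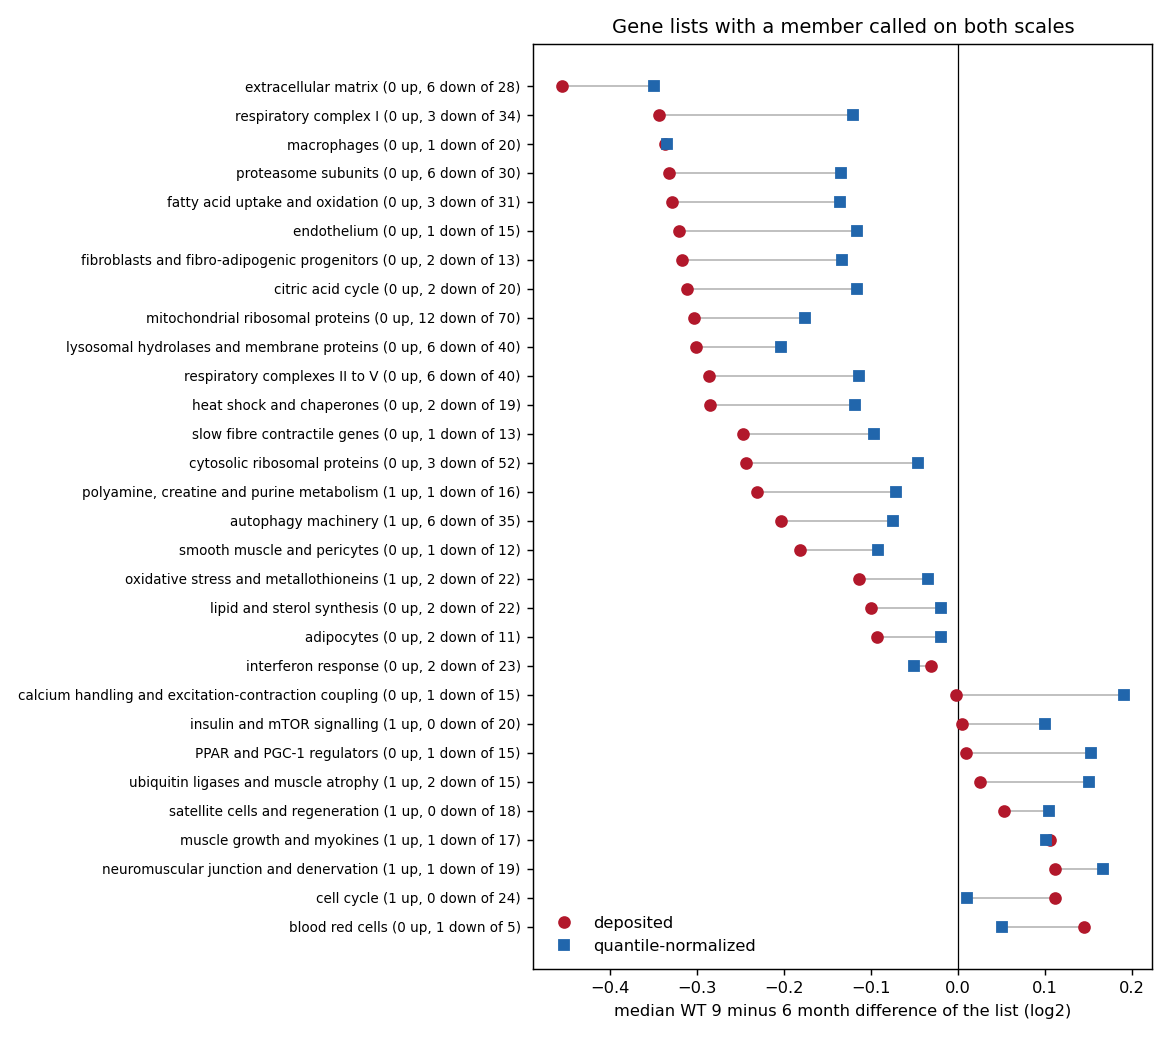
Median WT 9 minus 6 month difference (log2) of the 30 gene lists with at least 1 member called on both scales, on the deposited values (red circles) and after quantile normalization (blue squares); labels give the members called higher and lower on both scales of those measured. The extracellular matrix list lies lowest at -0.46 and -0.35, and the macrophage list stays at -0.34 on both scales, while most lists lie nearer to 0 after quantile normalization.

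Contractile genes of the fast fibre held 1 call. Of 16, 1 was lower on the deposited values and 0 after quantile normalization, with medians of -0.02 and 0.05. The called member was Pvalb, encoding the calcium buffer parvalbumin, at 12.80, 12.81, 12.79 and 12.61 at 6 months and 12.32, 12.41, 12.43 and 12.67 at 9 months. The ages overlapped through replicate 4 of each, and the difference was -0.29 ± 0.09 (adjusted p = 0.0333; quantile-normalized -0.20, adjusted p = 0.145). Of 13 slow fibre genes, 2 were lower on each scale and 1 on both. That gene was Tpm3, the slow tropomyosin, which fell by 0.71 (adjusted p = 0.011; quantile-normalized -0.54, adjusted p = 0.0256). Atp2a2, the slow-fibre calcium pump, passed on the deposited values only (-0.52, adjusted p = 0.0129; quantile-normalized -0.35, adjusted p = 0.0688), and the dim Tnni1, slow troponin I, after quantile normalization only (-0.73, adjusted p = 0.0254). No member of the fast or slow list passed on either scale without WT 9 mo replicate 1.

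Calcium-handling genes held 1 call on both scales, Trdn, beside 3.79% of all genes lower and 2.39% higher on both. Of 15, 2 were lower on the deposited values, Trdn as above and Jph2, the triad protein junctophilin (-0.39, adjusted p = 0.0261; quantile-normalized -0.20, adjusted p = 0.295). Cacna1s, the voltage sensor of the T-tubule, had 10.76, 10.86, 10.56 and 10.84 at 6 months and 11.22, 10.93, 11.02 and 10.87 at 9 months. Its arrays of 9 months were all above those of 6 months, narrowly, and the difference was 0.26 (adjusted p = 0.137) on the deposited values and 0.48 (adjusted p = 0.0257) after quantile normalization. At the neuromuscular junction, 1 of 19 genes rose and 1 fell on both scales, beside 2.39% and 3.79% of all genes. Chrnb1, a subunit of the acetylcholine receptor, went from 6.67, 7.12, 7.18 and 6.73 to 6.28, 5.80, 6.25 and 6.19. The ages did not overlap, and the fall of 0.79 (adjusted p = 0.0111) was kept after quantile normalization (-0.80, adjusted p = 0.0114) and without WT 9 mo replicate 1 (adjusted p = 0.0416). Myog, the myogenic factor that is raised in denervated and regenerating muscle, rose by 0.48 from a dim level (adjusted p = 0.0467; quantile-normalized 0.47, adjusted p = 0.048).

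Among growth and atrophy genes, Mstn, encoding myostatin, fell. Its values were 8.73, 9.12, 8.54 and 8.50 at 6 months and 7.54, 8.21, 7.09 and 8.23 at 9 months. Replicates 1 and 3 were again the lowest, and the ages did not overlap. The difference was -0.95 ± 0.21 (adjusted p = 0.00817; quantile-normalized -0.80, adjusted p = 0.0215). Of 17 growth and myokine genes, Fstl1 rose and Mstn fell on both scales, beside 2.39% and 3.79% of all genes. Igf1r, the IGF-1 receptor, passed after quantile normalization only (0.38, adjusted p = 0.0421).

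Of 15 atrophy-related genes, 2 fell and 1 rose on both scales, beside 3.79% and 2.39% of all genes. Without WT 9 mo replicate 1, 0 of them passed on either scale. Mss51, a mitochondrial protein of fast muscle, had 10.48, 10.95, 10.69 and 10.98 at 6 months and 9.54, 9.46, 10.10 and 10.31 at 9 months, all lower. It fell by 0.92 (adjusted p = 0.0109; quantile-normalized -0.68, adjusted p = 0.0454), and in Gaa-/- muscle by 0.98 (adjusted p = 0.0467). Fbxo30, a ubiquitin ligase, fell by 0.65 (adjusted p = 0.0136; quantile-normalized -0.60, adjusted p = 0.0191), and Foxo3, a transcription factor that drives atrophy genes, rose by 0.37 (adjusted p = 0.0413; quantile-normalized 0.44, adjusted p = 0.0269).

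Among genes of mitochondrial energy supply, falls were called more often on the deposited values than after quantile normalization. In the 5 lists of mitochondrial ribosome, respiratory chain, citric acid cycle and fatty acid use, which hold 195 measured genes, 68 were lower and 0 higher on the deposited values, 28 and 0 after quantile normalization, and 26 lower on both, beside 6.34%, 4.2% and 3.79% of all genes. Their median was -0.31 and -0.14. These are mostly bright genes, and the 2 brightest level classes moved by -0.16 and -0.22 as a whole on the deposited values.

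Respiratory complex I, which takes electrons from NADH, had 12 of 34 members lower on the deposited values and 3 after quantile normalization, Ndufa5, Ndufa1 and Ndufa2 by name. Ndufa5 was at 9.63, 9.57, 9.98 and 9.70 at 6 months and 7.99, 8.46, 8.29 and 9.13 at 9 months. All older arrays were lower, replicate 4 the least, with a difference of -1.25 ± 0.27 (adjusted p = 0.0076; quantile-normalized -1.07, adjusted p = 0.0103). Complexes II to V had 18 of 40 lower and 6 after quantile normalization. Sdhd, a membrane anchor of succinate dehydrogenase, fell by 0.73 (adjusted p = 0.00714; quantile-normalized -0.51, adjusted p = 0.0153), and Cox7b, a cytochrome oxidase subunit, by 0.77 (adjusted p = 0.00858; quantile-normalized -0.54, adjusted p = 0.0216). Atp5j, a coupling subunit of ATP synthase, fell by 0.80 (adjusted p = 0.00862; quantile-normalized -0.58, adjusted p = 0.0191). Without WT 9 mo replicate 1, 3 complex I genes and 1 gene of complexes II to V passed on the deposited values, and 1 and 0 after quantile normalization.

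The mitochondrial ribosome had 21 of 70 genes lower on the deposited values, 14 after quantile normalization and 12 on both. Mrpl33 was at 9.79, 9.47, 9.56 and 9.86 at 6 months and 8.80, 8.82, 9.01 and 9.31 at 9 months, with no overlap. It fell by 0.69 ± 0.13 (adjusted p = 0.00348; quantile-normalized -0.49, adjusted p = 0.00773), and by 0.58 in Gaa-/- muscle (adjusted p = 0.0344). Mrpl12 fell by 0.56 (adjusted p = 0.00452; quantile-normalized -0.37, adjusted p = 0.0221) and Mrpl27 by 0.61 (adjusted p = 0.00858; quantile-normalized -0.50, adjusted p = 0.0176). Tfam, which packages and transcribes mitochondrial DNA, fell from 6.60, 6.54, 6.52 and 6.67 to 5.77, 6.28, 5.93 and 5.50, every older array being lower (difference -0.71, adjusted p = 0.00835; quantile-normalized -0.73, adjusted p = 0.00847). It was the 1 of 15 PPAR and PGC-1 regulators that passed. Without WT 9 mo replicate 1 Tfam kept its call (adjusted p = 0.0459), and 3 genes of the mitochondrial ribosome passed on the deposited values.

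Fatty acid use showed 11 of 31 genes lower on the deposited values and 3 after quantile normalization. Ucp3, the muscle uncoupling protein that is raised by fatty acids, had 9.15, 9.00, 9.11 and 8.88 at 6 months and 7.61, 7.72, 8.01 and 8.41 at 9 months. The ages did not overlap, and the fall was 2.14-fold (difference -1.10, adjusted p = 0.00908; quantile-normalized -0.95, adjusted p = 0.0174). Fabp4, a fatty acid carrier of endothelium and fat cells, fell 2.11-fold (adjusted p = 0.0183; quantile-normalized -0.89, adjusted p = 0.0357), and Decr1, an enzyme that prepares unsaturated fatty acids for oxidation, by 0.65 (adjusted p = 0.0169; quantile-normalized -0.52, adjusted p = 0.0273). Pdk4, the kinase that shuts pyruvate out of the citric acid cycle, passed on the deposited values only (-0.98, adjusted p = 0.0202; quantile-normalized -0.76, adjusted p = 0.0744), with 10.76 to 11.43 at 6 months and 10.76, 9.68, 9.91 and 9.82 at 9 months. Replicate 1 stood beside the lowest array of 6 months, and without it Pdk4 passed on both scales (adjusted p = 0.0271 and 0.0455). In the citric acid cycle list 6 of 20 were lower on the deposited values and 2 on both. Of the 2, Got1 (cytosolic aspartate aminotransferase) fell by 0.54 (adjusted p = 0.00831; quantile-normalized -0.32, adjusted p = 0.0392). The other, Dld (the shared dehydrogenase subunit E3), fell by 0.93 (adjusted p = 0.015; quantile-normalized -0.72, adjusted p = 0.0325). Got2, the mitochondrial aspartate aminotransferase, did not pass (-0.15, adjusted p = 0.258).

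In sugar metabolism the share of members called was near that of all genes, 6.34% lower on the deposited values. Of 18 glycolysis genes, Pgk1, phosphoglycerate kinase, was lower on the deposited values (-0.47, adjusted p = 0.0308; quantile-normalized -0.27, adjusted p = 0.163), and Hk2, hexokinase, was higher after quantile normalization only (0.44, adjusted p = 0.0412). Of 19 glycogen genes, Gys1, muscle glycogen synthase, was lower on the deposited values. Its mean was 11.26 ± 0.03 (SD, n = 4) at 6 months and 10.91 ± 0.07 at 9 months. The ages did not overlap on that scale (-0.35, adjusted p = 0.0192), and the quantile-normalized difference was -0.16 (adjusted p = 0.258). The glycogen list's median was -0.09 on the deposited values and 0.07 after normalization.

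Some genes of protein breakdown fell. In the 3 lists of proteasome, autophagy and lysosome, 105 genes were measured: 29 were lower and 1 higher on the deposited values, 19 and 1 after quantile normalization, and 18 and 1 on both. Among all genes 6.34%, 4.2% and 3.79% were lower. The proteasome list, with a median level of 8.89 at 6 months, lay nearest to the brightest level class. In that class 497 of 1929 genes were lower on the deposited values. The autophagy and lysosome lists, at 7.24 and 7.12, lay nearest to a class with a median level of 7.06. There 167 of 1929 genes were lower on the deposited values. The proteasome had 11 of 30 subunits lower and 6 on both. Psmd6, a subunit of its regulatory cap, was at 8.42, 8.52, 8.56 and 8.54 at 6 months and 7.47, 7.78, 7.85 and 8.02 at 9 months. All older arrays were clearly lower, with a difference of -0.73 ± 0.13 (adjusted p = 0.00275; quantile-normalized -0.58, adjusted p = 0.00368). Psma3, of the core ring, fell by 0.74 (adjusted p = 0.00295; quantile-normalized -0.56, adjusted p = 0.00743), and Psmd3, of the cap, by 0.63 (adjusted p = 0.00355; quantile-normalized -0.44, adjusted p = 0.0167). All 3 subunits kept their calls without WT 9 mo replicate 1, at adjusted p values of 0.0237, 0.0234 and 0.0221, and were the 3 proteasome calls left.

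Lysosomal genes were lower for 11 of 40 on the deposited values and 6 on both scales, with medians of -0.30 and -0.20. Ctsb, the abundant cathepsin B, had 10.65, 10.62, 10.61 and 10.56 at 6 months and 9.73, 9.90, 9.99 and 10.30 at 9 months. The young arrays lay within a narrow band that no older array reached (difference -0.63 ± 0.12, adjusted p = 0.00356; quantile-normalized -0.39, adjusted p = 0.0159). Ctsz, another cathepsin, fell by 0.55 (adjusted p = 0.00879; quantile-normalized -0.52, adjusted p = 0.00872) and the dim Ctsk, cathepsin K of matrix-degrading cells, had a difference of -1.09 (adjusted p = 0.00919; quantile-normalized -1.17, adjusted p = 0.00854). Gaa, a member of this list, did not pass, as given above. Of 35 autophagy genes 7 were lower and 1 higher on the deposited values and 6 and 1 on both. Gabarapl2, which coats autophagosomes, fell by 0.70 (adjusted p = 0.00831; quantile-normalized -0.65, adjusted p = 0.00814), and Bnip3l, a receptor for the removal of mitochondria, by 0.68 (adjusted p = 0.00952; quantile-normalized -0.54, adjusted p = 0.0152). Ulk2, a kinase that starts autophagy, passed on the deposited values only (-0.44, adjusted p = 0.0125; quantile-normalized -0.27, adjusted p = 0.0714). Without WT 9 mo replicate 1, 1 lysosomal and 0 autophagy genes were lower on the deposited values.

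Cytosolic ribosomal proteins depended on the scale: 15 of 52 were lower on the deposited values and 3 on both, while 2 were higher after quantile normalization. Among all genes these shares were 6.34%, 3.79% and 3.84%. The list's median level at 6 months was 9.57, and in the brightest level class 497 of 1929 genes were lower on the deposited values. Rpl38 had 9.44, 9.26, 9.53 and 9.46 at 6 months and 8.77, 8.77, 8.79 and 9.19 at 9 months, and replicate 4 stood apart from the other older arrays. Its fall was 0.54 (adjusted p = 0.00708; quantile-normalized -0.35, adjusted p = 0.0298). Rpl5 and Rpl31 fell by 0.66 (adjusted p = 0.00831; quantile-normalized -0.44, adjusted p = 0.0254) and 0.61 (adjusted p = 0.00928; quantile-normalized -0.38, adjusted p = 0.0414). Ribosomal protein genes have many near-identical copies in the genome, so probe sets of this family may read more than 1 of them. Among 19 heat shock genes 5 were lower and 2 on both, beside 6.34% and 3.79% of all genes. Of the 2, Tcp1, a subunit of the ring chaperonin, fell by 0.63 (adjusted p = 0.00494; quantile-normalized -0.47, adjusted p = 0.00879) and Ahsa1, the activator of Hsp90, by 0.69 (adjusted p = 0.00863; quantile-normalized -0.54, adjusted p = 0.0198). Cryab, the small heat shock protein of the Z-disc, passed on the deposited values only (-0.56, adjusted p = 0.0361; quantile-normalized -0.35, adjusted p = 0.156). The 3 lower genes of the endoplasmic reticulum stress list, Herpud1, Hsp90b1 and Atf4 of 20, passed on the deposited values only, at -0.38 (adjusted p = 0.0168; quantile-normalized -0.17, adjusted p = 0.242), -0.80 (adjusted p = 0.0209; quantile-normalized -0.61, adjusted p = 0.0538) and -0.51 (adjusted p = 0.0356; quantile-normalized -0.28, adjusted p = 0.204). None of the 32 splicing genes was lower on either scale, and Hnrnpm was higher after quantile normalization only (0.34, adjusted p = 0.0458).

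The extracellular matrix list had the lowest median of all lists on both scales, -0.46 and -0.35, with 23 of 28 members below 0 on the deposited values and 22 after quantile normalization. Its median level at 6 months was 7.67, and the level class nearest to it, with a median level of 7.78, had a median difference of -0.16 and -0.02. On the deposited values 9 members were lower, on both scales 6, beside 6.34% and 3.79% of all genes. In that level class 305 of 1929 genes were lower on the deposited values. Col3a1, collagen III, had 9.38, 9.31, 9.17 and 9.64 at 6 months and 7.88, 8.24, 8.61 and 8.48 at 9 months. The ages did not overlap, and the difference was -1.07 ± 0.20 (adjusted p = 0.00356; quantile-normalized -0.90, adjusted p = 0.00821).

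Sparc, a collagen-binding glycoprotein, had 11.05, 11.14, 10.96 and 11.25 at 6 months and 10.07, 10.22, 10.41 and 10.67 at 9 months. No older array reached the younger range, and it fell by 0.76 (adjusted p = 0.00831; quantile-normalized -0.56, adjusted p = 0.0287). Mmp2, a gelatinase, fell by 0.76 as well (adjusted p = 0.00834; quantile-normalized -0.61, adjusted p = 0.0214). Col3a1 and Sparc were lower in WT at each later age, with means of 10.23 ± 0.50 and 12.05 ± 0.25 (SD, n = 4) at 1.5 months and 9.76 ± 0.24 and 11.39 ± 0.29 at 4 months. The matrix median in Gaa-/- muscle from 6 to 9 months was -0.32, with 0 members called. Without WT 9 mo replicate 1 the WT median was -0.39 on the deposited values and -0.33 after quantile normalization, with 2 and 0 members lower.

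Of the markers of cells that make or surround the matrix a few members passed, and in bulk muscle fewer cells of a type and less RNA per cell cannot be told apart. Of 13 fibroblast genes, 4 were lower and 2 on both, beside 6.34% and 3.79% of all genes, with medians of -0.32 and -0.13 and a log2 summed level of 12.68 to 12.73 at 6 months and 12.13 to 12.46 at 9 months. Dpt, dermatopontin, had 8.49, 8.24, 8.52 and 8.33 at 6 months and 7.03, 7.29, 6.99 and 7.61 at 9 months. The groups were far apart, and Dpt fell 2.24-fold (adjusted p = 0.00445; quantile-normalized difference -1.05, adjusted p = 0.00584), also without WT 9 mo replicate 1 (adjusted p = 0.0271). Lum, the proteoglycan lumican, fell by 1.04 (adjusted p = 0.0099, and 0.0142 after quantile normalization), and Dcn, decorin, passed on the deposited values only (-0.54, adjusted p = 0.0177; quantile-normalized -0.35, adjusted p = 0.0836).

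Of 20 macrophage genes 1 was lower on both scales, near the 3.79% of all genes, and the list's median was -0.34 on each. Lyz2, lysozyme, had 7.49, 7.82, 7.07 and 7.51 at 6 months and 6.04, 6.71, 5.82 and 6.89 at 9 months. The ages did not overlap, and the fall was 2.16-fold (difference -1.11, adjusted p = 0.00723; quantile-normalized -1.07, adjusted p = 0.00773; without WT 9 mo replicate 1 adjusted p = 0.0439). The list's log2 summed level was 10.29 to 10.53 at 6 months and 9.94 to 10.13 at 9 months. In Gaa-/- muscle the macrophage median was -0.20 with 0 called. H2-DMb1, of MHC class II loading, passed after quantile normalization only (-0.61, adjusted p = 0.0303), 1 of 6 in its list.

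Endothelial genes were lower for 4 of 15 on the deposited values and 1 on both, beside 6.34% and 3.79% of all genes. The gene on both was Aqp1, the water channel of capillaries. It had 10.52, 10.37, 10.52 and 10.63 at 6 months and 9.87, 9.83, 9.95 and 9.98 at 9 months, tight within each age, and fell by 0.60 (adjusted p = 0.00723; quantile-normalized -0.39, adjusted p = 0.0414). Eng and Cdh5, an endothelial co-receptor and the vascular cadherin, passed on the deposited values only (-0.59, adjusted p = 0.0151, quantile-normalized -0.41, adjusted p = 0.0762, and -0.32, adjusted p = 0.0197; quantile-normalized -0.12, adjusted p = 0.457). Of 12 smooth muscle and pericyte genes Tagln, an actin-binding protein, was lower on both scales (-0.69, adjusted p = 0.0175; quantile-normalized -0.58, adjusted p = 0.0421), while the pericyte genes Rgs5 and the dim Cspg4 passed on the deposited values only (-0.58, adjusted p = 0.0245, quantile-normalized -0.38, adjusted p = 0.107, and 0.40, adjusted p = 0.0452; quantile-normalized 0.37, adjusted p = 0.0714). Car3, a carbonic anhydrase of fat cells that muscle fibres also make, fell by 0.82 (adjusted p = 0.00375; quantile-normalized -0.63, adjusted p = 0.00847), from 11.87 to 12.12 at 6 months to between 10.87 and 11.36. The fat cell list around it had medians of -0.09 and -0.02.

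Lymphoid, neutrophil, myelin and tendon lists had no member called on both scales. Ms4a1, a B cell surface protein, was higher on the deposited values from a dim level (0.63, adjusted p = 0.0354; quantile-normalized 0.54, adjusted p = 0.0609), the list's 7 genes having a median level of 4.20. Pmp22, a myelin protein also made elsewhere, was lower on the deposited values only (-0.51, adjusted p = 0.0441; quantile-normalized -0.35, adjusted p = 0.115). Kera and Chodl of the tendon and junction list were at -1.36 (adjusted p = 0.0847) and -0.54 (adjusted p = 0.0939). Of T cell genes, Nkg7 and Gzma had differences of 0.50 (adjusted p = 0.0613) and 0.37 (adjusted p = 0.16), and of neutrophil genes Camp and S100a8 had 0.35 (adjusted p = 0.318) and 0.67 (adjusted p = 0.405). Among blood genes, Car2, red cell carbonic anhydrase, fell on both scales (-0.88, adjusted p = 0.02; quantile-normalized -0.88, adjusted p = 0.0242), while Slc4a1, the red cell anion exchanger, was higher after quantile normalization only (0.50, adjusted p = 0.0421).

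Regulatory lists held few calls. In insulin and mTOR signalling, Rictor, the defining subunit of mTORC2, had 7.73, 7.51, 7.51 and 7.49 at 6 months and 8.21, 7.75, 7.83 and 7.99 at 9 months. All older arrays were higher, and it rose by 0.39 (adjusted p = 0.0418; quantile-normalized 0.54, adjusted p = 0.0146). Insr, the insulin receptor, passed after quantile normalization only (0.49, adjusted p = 0.0144; deposited 0.29, adjusted p = 0.0874). No clock gene of 20 passed on the deposited values, and Clock and Nr1d2 were higher after quantile normalization (0.45, adjusted p = 0.0149, and 0.39, adjusted p = 0.037). Clock was at 9.24 to 9.34 at 6 months and 9.45 to 9.60 at 9 months. Time of day is not in the labels.

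Of 22 oxidative stress and metallothionein genes, 2 were lower and 1 higher on both scales, beside 3.79% and 2.39% of all genes. The list's medians were -0.11 and -0.03. The 2 lower genes were Gpx1 and Prdx1, a glutathione peroxidase and a peroxiredoxin. They fell by 0.53 (adjusted p = 0.00748; quantile-normalized -0.34, adjusted p = 0.0457) and 0.51 (adjusted p = 0.00831; quantile-normalized -0.31, adjusted p = 0.0377). Cat, catalase, fell on the deposited values only (-0.52, adjusted p = 0.015; quantile-normalized -0.29, adjusted p = 0.12). Of 22 lipid and sterol synthesis genes, 2 were lower and 0 higher on both scales. These were Elovl1 and Elovl5, elongases of fatty acids. They fell by 0.57 (adjusted p = 0.00716; quantile-normalized -0.46, adjusted p = 0.0151) and 0.82 (adjusted p = 0.011; quantile-normalized -0.85, adjusted p = 0.0109). Hmgcs1, of sterol synthesis, fell on the deposited values only (-0.50, adjusted p = 0.0494; quantile-normalized -0.36, adjusted p = 0.123). Of 16 polyamine, creatine and purine genes, 1 was lower on both scales, Amd2, and 1 higher, Slc6a8 as above. Amd2, of polyamine synthesis, fell by 0.84 (adjusted p = 0.00824; quantile-normalized -0.63, adjusted p = 0.0236). Sms, spermine synthase, passed on the deposited values only (-0.59, adjusted p = 0.0418; quantile-normalized -0.42, adjusted p = 0.111). Of 23 interferon genes, 2 were lower and 0 higher on both scales. These were Ifi27 and Ifit1, at -0.66 (adjusted p = 0.0368; quantile-normalized -0.72, adjusted p = 0.0286) and -0.72 (adjusted p = 0.0415; quantile-normalized -0.83, adjusted p = 0.0249), and both are dim. Cdc20, a dim cell cycle gene, was higher (0.67, adjusted p = 0.0121; quantile-normalized 0.58, adjusted p = 0.0226). Of senescence genes Cdkn2a had 0.43 (adjusted p = 0.0534) from a dim level and Ccng1 -0.51 (adjusted p = 0.0721). Vcam1 of satellite cells and Klf6 of the early response genes passed after quantile normalization only, at -0.62 (adjusted p = 0.033) and 0.53 (adjusted p = 0.0427), and so did Actg2, gut smooth muscle actin (-0.43, adjusted p = 0.0283).

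Some calls rested on the scale chosen. On the deposited values alone 143 genes were higher and 491 lower; after quantile normalization alone 279 were higher and 78 lower. By size, Rsrc2, Pdk4, Gpbp1 and Chordc1 led the deposited-only calls, at -1.02 (adjusted p = 0.0473), -0.98 (adjusted p = 0.0202), -0.95 (adjusted p = 0.0365) and -0.89 (adjusted p = 0.0401). After normalization their differences ran from -0.97 to -0.76, with adjusted p values of 0.0592 to 0.0744. Rspo3, Igsf10, Rap2c and Med7 led the other way, at -0.96, -0.84, -0.81 and -0.76 after normalization (adjusted p = 0.0463, 0.0324, 0.0482 and 0.0445). Their deposited differences ran from -0.85 to -0.72, with adjusted p values of 0.0517 to 0.0551. For these 8 genes the scales differed in the side of the threshold and not in sign.

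In Gaa-/- muscle the same 3 months brought 24 genes called higher (0.124%) and 28 lower (0.145%), with 2198 at an unadjusted p under 0.05. These arrays are not in the WT difference, but they share the estimate of spread and the quantile scale on which the WT calls rest. Of the 732 shared WT falls, 656 (89.6%) had a negative Gaa-/- difference, beside 49.2% of all genes, and 10 were called lower. Of the 461 shared rises, 353 (76.6%) had a positive one, beside 50.8% of all genes, and 1 was called higher. The median difference of the falls was -0.67 in WT and -0.26 in Gaa-/-, and of the rises 0.53 and 0.12. Without Gaa-/- 9 mo replicate 2, the array that was low in the 14 falls, 563 falls (76.9%) and 320 rises (69.4%) kept the sign, with medians of -0.15 and 0.08. After quantile normalization the 2 shares were 87.6% and 77.9% with all arrays, and 74.5% and 71.8% without that array.

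Whether a gene's change differed between WT and Gaa-/- was tested by the interaction of genotype and age. In limma no gene passed in either direction (0%) on either scale, with 2083 genes at an unadjusted p under 0.05 on the deposited values and 2031 after quantile normalization, and a smallest adjusted p of 0.081 and 0.0782. Without Gaa-/- 9 mo replicate 2, 4 genes had a higher change in WT and 14 a lower one, and without WT 9 mo replicate 4 the counts were 5 and 2. The genes nearest to the threshold are given as values.

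Hcn4, a pacemaker channel of heart that is dim in this muscle, had 4.70, 4.90, 4.37 and 4.66 in WT at 6 months and 5.56, 5.39, 5.05 and 5.30 at 9 months. In Gaa-/- it had 4.99, 5.22, 5.05 and 4.98 and then 4.74, 4.91, 4.38 and 4.02. The WT arrays were all higher at 9 months and the Gaa-/- arrays all lower, with an interaction of 1.22 ± 0.23 (adjusted p = 0.081). Mt3, a metallothionein, and Isl2, a homeodomain factor, likewise rose in WT (0.65, adjusted p = 0.0247, and 0.44, adjusted p = 0.0076; quantile-normalized 0.46, adjusted p = 0.00773), with Gaa-/- differences of -0.65 (adjusted p = 0.12) and -0.21 (adjusted p = 0.387) and interactions of 1.29 (adjusted p = 0.081) and 0.65 (adjusted p = 0.0826). Wnt3 and Spon2 had interactions of 1.06 (adjusted p = 0.096) and 1.17 (adjusted p = 0.081).

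Relt, a receptor of the TNF family, was at 6.78, 6.82, 6.80 and 6.77 in WT at 6 months and 6.54, 5.90, 6.46 and 6.52 at 9 months. In Gaa-/- muscle it had 6.96, 6.92, 6.71 and 7.07 and then 7.65, 7.34, 7.65 and 7.32. All WT arrays of 9 months were lower and all Gaa-/- arrays higher than those of 6 months, and the interaction was -1.01 ± 0.19 (adjusted p = 0.081). Casq2, the slow-fibre calsequestrin, had a WT difference of -0.42 (adjusted p = 0.141) beside a rise of 0.86 in Gaa-/- (adjusted p = 0.0344; interaction -1.28, adjusted p = 0.0826). Nfic, a transcription factor, was level in WT, with 8.86 to 9.08 at 6 months and 8.86 to 9.05 at 9 months, and rose by 0.64 in Gaa-/- muscle (adjusted p = 0.000494; interaction -0.64, adjusted p = 0.081). Usp2 and Pdk1, a deubiquitinase and a pyruvate dehydrogenase kinase, had interactions of -0.84 (adjusted p = 0.0826) and -0.76 (adjusted p = 0.096).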

How the data were processed

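RNA (100 ng) from tibialis anterior was hybridised to Affymetrix arrays, 1 per animal. The authors deposited log2 values, made with RMA and affy per the submitters' processing notes. For these tools no version was found, and the genome build was not given by the sources used here. RMA had already set the arrays to a like scale, and no background or detection value was used here. Limma 3.58.1 in R 4.3.3 fitted the 8 group means of all 32 arrays (24 residual degrees of freedom) to the 19291 probe sets with 1 symbol, and p-values were Benjamini-Hochberg adjusted over them, with a threshold of 0.05. The same fit was made after quantile normalization of the 32 arrays over 20079 probe sets, and with the alternatives given in the closing section. The code was tested on simulated data. Arrays limit the precision by their number, 4 per group.

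Genes named were the 14 largest rises and falls called on both scales without overlap of the ages, up to 3 called members of each of 47 gene lists (or up to 2 with the smallest p where none was called), 4 genes called on each scale alone, the 5 nearest the threshold in each direction of the genotype contrast, Gaa and Y-linked genes. The comparison and the lists were chosen with earlier results of these data known. Same-numbered arrays of the 2 ages were not treated as pairs, because the labels do not say that the numbers pair animals. Their deviations from the group means correlated at 0.028, 0.013, -0.016 and 0.029. For arrays of different number the range was -0.047 to 0.055.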

Additional observations from a re-analysis of the deposited data

Results flagged for a closer look

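In 12 of 302 groups of 4 arrays tested, 1 array stood far from the other 3, its gap to the nearest, as a share of the group's range, exceeding Dixon's critical value. By chance this happens in about 1 in 20 groups. In WT at 9 months these were Ucn (gap share 0.861), where replicate 1 had 8.14 beside 7.46 to 7.56, and Relt (0.887), where replicate 2 had 5.90 beside 6.46 to 6.54. Replicate 4 of 9 months stood high in Ulk2 (0.952), with 8.34 beside 7.99 to 8.01, and in Rpl38 (0.945), with 9.19 beside 8.77 to 8.79. In WT at 6 months replicate 4 stood apart in Lyg2 (0.889; 3.97 beside 3.19 to 3.28), Gcc2 (0.918; 7.22 beside 6.84 to 6.87), Pvalb (0.91; 12.61 beside 12.79 to 12.81) and Elovl1 (0.857; 7.98 beside 7.68 to 7.73). Replicate 1 of 6 months stood apart in Rictor (0.917; 7.73 beside 7.49 to 7.51) and Pmp22 (0.869; 8.53 beside 8.67 to 8.69), and replicate 3 in Mrpl12 (0.878; 9.28 beside 9.15 to 9.17). In WT at 4 months the spread of values had 1 such array, replicate 3. It had 1.90 beside 1.98 or more in the others (0.855). That group is not in the 9 minus 6 month difference. Its arrays do enter the shared estimate of spread, the quantile scale and the 12 younger WT arrays.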

How the results depend on the processing

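No named gene called on the deposited values was called with the opposite sign under the alternatives tried. The sign of genes that lost the call was not counted. The medians of 6 gene lists changed sign between the scales. The cause of each change in counts below was not tested. On the deposited values 604 genes were higher and 1223 lower. Quantile normalization gave 740 and 810, array spread as a covariate 2 and 0, and the 8 WT arrays of 6 and 9 months fitted alone, with fewer arrays behind the spread, 96 and 353. Median-centred arrays, the 16 WT arrays, dim genes left out, eBayes with a trend and arrayWeights kept both counts within 1.5 times. Leaving out 1 array gave 81 to 986 higher and 230 to 1811 lower, the fewest without WT 9 mo replicate 1 and the most without WT 9 mo replicate 4. After quantile normalization, in alternatives chosen after seeing the data, the covariate gave 2 and 0, the 8 arrays alone 10 and 66, and leaving out 1 array 94 to 1252 higher and 148 to 1277 lower. The replicate block gave 639 higher and 1250 lower on the deposited values, and 787 and 850 after quantile normalization. The labels do not say that the numbers pair the arrays.

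The genotype contrast, with no call in the full fit, gave 4 genes higher and 6 lower with dim genes left out, 3 and 10 with a trend, and 0 to 5 higher and 0 to 14 lower when 1 array was left out. The difference in array spread lay between -0.107 and -0.0716 when 1 array was left out. Of the 113 named genes called on the deposited values, 87 kept the call after quantile normalization and 57 with the 8 arrays alone. No background was measured, so dim genes have no detection limit here.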

Other observations

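The Y-linked genes measured here did not pass between 6 and 9 months. Eif2s3y, a translation initiation factor, had 7.51, 7.48, 7.55 and 7.72 at 6 months and 7.09, 7.06, 7.10 and 7.27 at 9 months. The ages did not overlap, and the difference was -0.44 ± 0.16 (adjusted p = 0.0677; quantile-normalized -0.34, adjusted p = 0.116). Uty and Kdm5d, both histone demethylase genes, had differences of 0.06 (adjusted p = 0.87) and -0.22 (adjusted p = 0.527).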
